A study of Mus musculus with 2 samples.

Results

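Lpin1, Acly, Enpp2 and Mtmr3 are 4 genes of lipid metabolism that each had 1 alternative splicing event in a comparison of wild-type mouse embryonic fibroblasts (WT) with SRSF10-deficient ones (KO). They were chosen by gene symbol, matched through the gene identifiers, and make up 4 of the 96 genes and 4 of the 100 events in the authors' deposited table. Lpin1 stands there under its older spelling Lipin1. SRSF10 belongs to the SR proteins, which bind pre-mRNA and steer splicing, and the series title places the study in adipocyte differentiation. Each genotype was represented by 1 library of poly(A)-selected RNA, sequenced as paired ends. How SRSF10 was removed, and from how many embryos or cultures the cells came, is not stated in the labels. A single library per genotype leaves no replicates, so every test below compares 2 libraries and not the genotypes. The table holds splicing events only, so neither fibroblast markers nor the level of Srsf10 were analysed here.

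The 4 genes act at separate steps of lipid handling. Lpin1 encodes lipin 1, a phosphatidate phosphatase that makes diacylglycerol for triglyceride synthesis and also acts in the nucleus as a transcriptional coactivator, and it is needed for normal adipose tissue in mice. Acly encodes ATP citrate lyase, which cleaves citrate in the cytosol to acetyl-CoA, the building block of fatty acids and sterols. Enpp2 encodes autotaxin, a secreted lysophospholipase D that produces the signalling lipid lysophosphatidic acid and is released by adipocytes. Mtmr3 encodes a myotubularin phosphatase that removes a phosphate from phosphatidylinositol 3-phosphate, a lipid of endosomes and autophagosomes.

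All 4 events are cassette exons, which are either included in the mRNA or skipped. The Acly, Enpp2 and Mtmr3 exons are coding in GENCODE M21, and their sequences are shown because they are the segments that the isoforms gain or lose. Each is given 5′ to 3′ on the transcribed strand from the GENCODE M21 transcripts (GRCm38), with the cassette exon in capitals and 10 bases of each neighbouring exon in lower case. The exons lie on the minus strand at chr11:100503160-100503189 (Acly), chr15:54877776-54877931 (Enpp2) and chr11:4485879-4485989 (Mtmr3) in GRCm38.
Acly: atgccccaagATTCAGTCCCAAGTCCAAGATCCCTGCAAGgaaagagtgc
Enpp2: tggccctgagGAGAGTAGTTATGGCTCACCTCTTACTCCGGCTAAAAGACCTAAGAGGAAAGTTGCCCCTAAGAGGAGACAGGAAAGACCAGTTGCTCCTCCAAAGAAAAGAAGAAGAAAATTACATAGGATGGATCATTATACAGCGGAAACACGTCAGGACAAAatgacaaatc
Mtmr3: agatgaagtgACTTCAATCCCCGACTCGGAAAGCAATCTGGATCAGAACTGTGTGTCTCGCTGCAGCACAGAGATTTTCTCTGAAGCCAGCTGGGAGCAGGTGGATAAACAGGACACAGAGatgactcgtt

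The exons have 144 nucleotides in Lpin1, 30 in Acly, 156 in Enpp2 and 111 in Mtmr3, so each length is a multiple of 3. Of the 69 cassette exons of the table with 3 exons in both their location and their isoform text, 35 had such a length. The Acly exon was the shortest of the 69, whose median was 105 nucleotides. It adds 10 codons, the Enpp2 exon 52 and the Mtmr3 exon 37. In the table's mm9 coordinates the exons lie on chromosome 12 from 16591314 to 16591457 (Lpin1), on chromosome 11 from 100364474 to 100364503 (Acly), on chromosome 15 from 54709331 to 54709486 (Enpp2) and on chromosome 11 from 4385882 to 4385992 (Mtmr3). Their place in the transcripts was found from exon length together with the lengths of both adjacent introns.

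The Lpin1 exon is the second of 21 exons of the transcript Lpin1-207 and lies wholly in the 5′ UTR, since none of its bases is coding. Introns of 5066 and 3603 nucleotides flank it, and skipping joins them into 1 intron of 8813 nucleotides. The exon before it has 99 nucleotides in the table, while the annotated transcripts with the same splice donor start later and have first exons of 49 to 56 nucleotides. Lpin1-201 and Lpin1-204 skip the exon. These 2 transcripts code for 2772 and 2673 nucleotides, a difference in a later part of the gene. The alpha and beta forms of lipin 1 are known to differ by a coding exon, and the listed event is not that exon.

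The coding exons lie inside the reading frame. The Acly exon is exon 14 of 29 in Acly-203, whose coding length is 3303 nucleotides against 3273 in the skipping transcripts Acly-201 and Acly-207. The Enpp2 exon is exon 12 of 26 in Enpp2-203 and Enpp2-204, with a coding length of 2742 nucleotides in Enpp2-203 against 2586 in Enpp2-201, which skips it. This exon is known to encode the lysine- and arginine-rich insertion that sets autotaxin alpha apart from the beta form. The Mtmr3 exon is exon 15 of 17 in Mtmr3-203, a transcript whose start is not annotated. It follows an exon of 1399 nucleotides and precedes a short intron of 427 nucleotides. In none of the 4 genes did a transcript that GENCODE tags as principal include the listed exon.

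**Figure D1:**
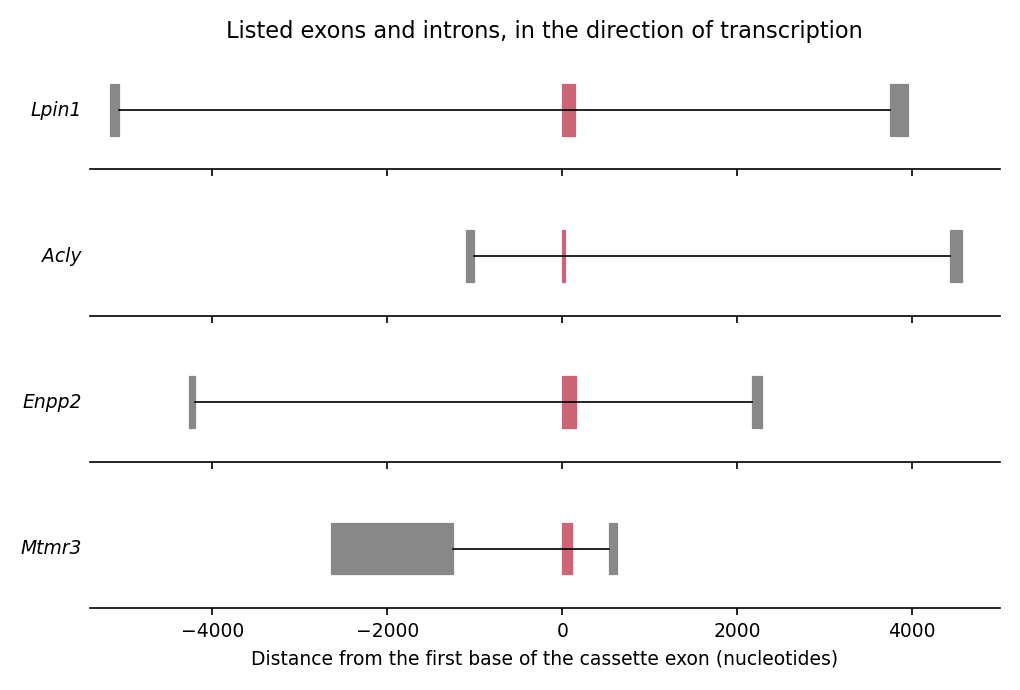
The listed exons of the 4 genes, drawn to scale in the direction of transcription as distance in nucleotides from the first base of the cassette exon (red), with the neighbouring exons in grey and introns as lines. The Acly exon, with 30 nucleotides, is the narrowest red block, and the 1399-nucleotide exon before it sets Mtmr3 apart.

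SRSF10 is known to bind purine-rich RNA, so the base composition of the exons was described against internal exons of protein-coding transcripts with exactly the same length. Purines made up 62.8% of the Enpp2 exon, more than in 94.6% of 993 exons of 156 nucleotides, whose median was 51.9%. They made up 55.9% of the Mtmr3 exon, more than in 64.6% of 1560 exons (median 53.2%). The Lpin1 exon had 50.7%, more than in 33.9% of 1239 exons (median 52.8%). The Acly exon had 46.7%, more than in 15.9% of 276 exons (median 56.7%). The letters AGAGA occurred once on the transcribed strand of the Mtmr3 exon and once on its other strand, against 19.1% and 11.1% of exons of that length with a match on the respective strand. They occurred on neither strand of the other 3 exons, where 26.0% (Lpin1), 5.07% (Acly) and 25.2% (Enpp2) of same-length exons held them on the transcribed strand and 17.1%, 3.62% and 17.2% on the other. The letters GAGAA, which can overlap AGAGA, were found once, on the other strand of the Mtmr3 exon. On the transcribed strand 31.2%, 9.42%, 29.4% and 22.9% of exons with the lengths of Lpin1, Acly, Enpp2 and Mtmr3 held GAGAA, and on the other strand 16.3%, 2.90%, 15.1% and 12.2%.

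The comparison asked how inclusion of these exons differed between the WT and the KO library. Inclusion rose in Lpin1 and Mtmr3. In Enpp2 the authors' estimate was also higher in KO, and in Acly it was lower, but neither passed the test on reads. An event passed where a two-sided Fisher's exact test of inclusion-only against exclusion-only reads had a Benjamini-Hochberg adjusted p under 0.05 over all 100 events, where inclusion also differed by 10 points or more and the read share had the same sign. By this rule 2 of the 4 passed, both higher in KO, against 86% of all events of the table (49% higher and 37% lower). Every listed event had been selected by the authors and already differs between the libraries by 20 points or more, so all met the 10-point condition. The adjusted p-values therefore describe reads of events selected for a difference and are not false discovery rates for unselected events. The passing share says nothing about genes outside the table. The median of the 4 signed differences (KO minus WT) was 33.5 points, beside 23 points over all 100 events. Rises and falls are mixed in both, so these are not median sizes.

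In Lpin1 inclusion was 16% in WT, with the authors' bounds at 3% and 37%, and 62% in KO, with bounds at 47% and 78%. The bounds of both libraries did not overlap, as in 83% of all events. Isoform-exclusive reads, those that fit a single isoform, were 1 for inclusion and 7 for exclusion in WT, and 26 and 9 in KO. The share of inclusion-only among them was 12.5% in WT (exact Clopper-Pearson 95% interval 0.316% to 52.7%) and 74.3% in KO (56.7% to 87.5%). The difference of 61.8 points had a 95% interval (Newcombe) of 23.5 to 77.2 points (Fisher's exact test, adjusted p = 0.00472). Only 1 cassette event of the table had fewer exclusive reads in WT, and the call rests on these 8 reads. Inclusion reads were also divided by 2, since inclusion has 2 junctions and exclusion 1. This division takes no account of any reads inside the exon that cross no junction. The call then depended on how the single WT read was rounded. Rounded up it stayed at 1, against 13 in KO, and the event missed the threshold (adjusted p = 0.0548, Fisher's exact test), while rounded down to 0 it passed (adjusted p = 0.0181, Fisher's exact test).

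Most Lpin1 reads fitted both isoforms, 113 of 150 in WT and 550 of 689 in KO. The authors' deposited table divides such reads between the isoforms, and it assigned 22 of the 113 to inclusion in WT (19.5%) and 264 of the 550 in KO (48.0%). Among all reads that fit an isoform, the inclusion-only reads were 1 of 121 in WT (0.826%) and 26 of 585 in KO (4.44%). This contrast, added after the data were seen, missed the threshold (adjusted p = 0.0796, Fisher's exact test), while 80% of all events passed it. The Bayes factor for Lpin1 in the authors' deposited table was 76.64, beside a median of 44.7 over the table.

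In Mtmr3 inclusion was 25% in WT (authors' bounds 20% and 30%) and 47% in KO (40% and 56%). The bounds did not overlap, and the difference of 22 points lay just above the smallest in the table, 20 points. Mtmr3 was the most deeply covered of the 4 genes. It had 66 inclusion-only and 121 exclusion-only reads in WT, and 76 and 48 in KO. The inclusion-only share was 35.3% in WT (exact 95% interval 28.5% to 42.6%) and 61.3% in KO (52.1% to 69.9%). The difference of 26.0 points had an interval of 14.7 to 36.4 points (Fisher's exact test, adjusted p = 5.96e-05). It passed also with halved inclusion reads (adjusted p = 0.0021, Fisher's exact test) and among all reads that fit an isoform, 66 of 1144 in WT against 76 of 705 in KO (adjusted p = 0.000597, Fisher's exact test). The authors' inclusion and the read share gave differences 4 points apart, the closest of the 4 genes.

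In Enpp2 inclusion was 46% in WT (authors' bounds 24% and 72%) and 91% in KO (70% and 99%). These bounds overlapped, between 70% and 72%. The reads were 31 for inclusion and 3 for exclusion in WT, and 55 and 0 in KO, so the inclusion-only share was high in both libraries. It stood at 91.2% in WT (exact 95% interval 76.3% to 98.1%) and at 100% in KO, where 0 of 55 exclusion reads allow an exclusion share of up to 5.45%. The difference in this share was 8.82 points with an interval of 0.106 to 23.0 points, and Enpp2 missed the threshold (adjusted p = 0.0599, Fisher's exact test). The authors' estimate differed by 45 points, 36.2 points more than the read share. The read share takes no account of how long the alternative exon is, and whether this accounts for the gap was not tested. With inclusion reads halved, the share was 84.2% in WT and 100% in KO. No Enpp2 read fitted both isoforms in either library, as in 8 of the 71 cassette events of the table. Reads that fitted neither isoform were 105 of 139 in WT (75.5%, interval 67.5% to 82.4%) and 80 of 135 in KO (59.3%, 50.5% to 67.6%), beside medians of 47.0% and 49.4% over all events. The Bayes factor in the authors' deposited table was 12.13, the lowest of the 4.

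**Figure D2:**
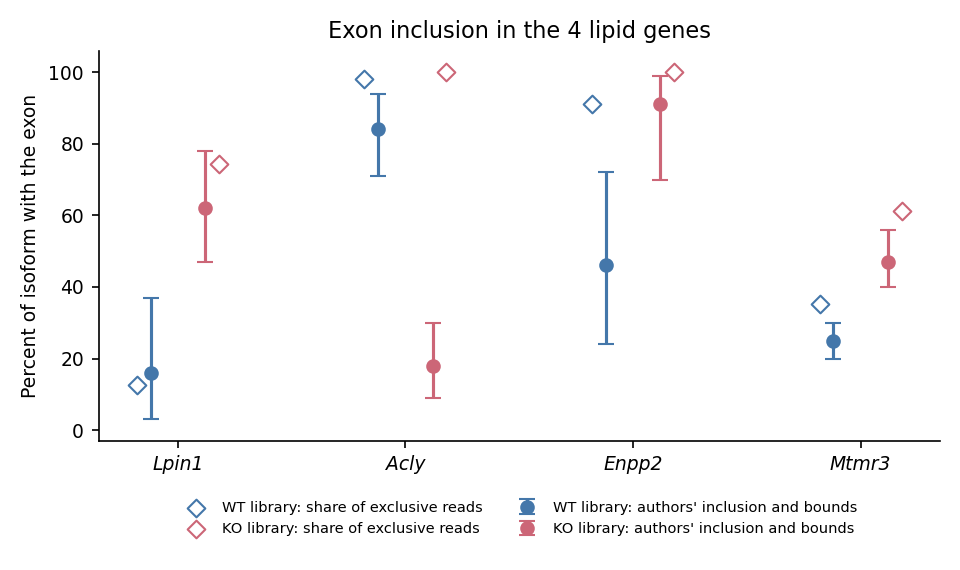
Percent of the isoform with the exon in WT (blue) and KO (red) for each gene, with the authors' inclusion and bounds as filled circles and bars and the share of inclusion-only among exclusive reads as open diamonds. Bounds are apart in Lpin1, Acly and Mtmr3, as in 83% of all events of the table, and in Acly both diamonds sit at 98.1% and 100% while the circles stand at 84% and 18%.

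In Acly the measures disagreed. The authors' inclusion was 84% in WT (bounds 71% and 94%) and 18% in KO (9% and 30%), a difference of -66 points, equal in size to the largest of the table. The Bayes factor in the authors' deposited table was at its ceiling, as in 11 events. The exclusive reads were 103 for inclusion and 2 for exclusion in WT, and 11 and 0 in KO. Their inclusion-only share was 98.1% in WT (exact 95% interval 93.3% to 99.8%) and 100% in KO, where 0 of 11 exclusion reads allow an exclusion share of up to 27.3%. The difference of 1.90 points had an interval of -24.0 to 6.68 points and missed the threshold (adjusted p = 1, Fisher's exact test). Acly was the only event of the 100 in which both measures had opposite signs, and with 67.9 points between them they were further apart than the median of 7.41 points.

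The Acly reads did change in another respect. Inclusion-only reads were 103 of the 329 that fit an isoform in WT (31.3%, interval 26.3% to 36.6%) and 11 of 161 in KO (6.83%, 3.46% to 11.9%). The difference of -24.5 points had an interval of -30.5 to -17.6 points, and in this contrast, added after the data were seen, inclusion fell (adjusted p = 1.55e-09, Fisher's exact test). Reads that fit both isoforms were 224 in WT and 150 in KO. The authors' deposited table assigned 177 of these to inclusion in WT (79.0%) and 29 in KO (19.3%). Reads that fit exclusion alone did not show the matching increase. In KO 121 reads were assigned to exclusion and 0 of them fitted it alone, which allows a share of up to 2.48%. In WT this share was 2 of 49 (4.08%). Over the cassette events with such reads its median was 33.3% in WT (69 events) and 26.3% in KO (67 events). For Lpin1 it was 7.14% in WT and 3.05% in KO, and for Mtmr3 14.2% and 12.7%. All KO reads assigned to Acly exclusion were thus reads that fit both isoforms.

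**Figure D3:**
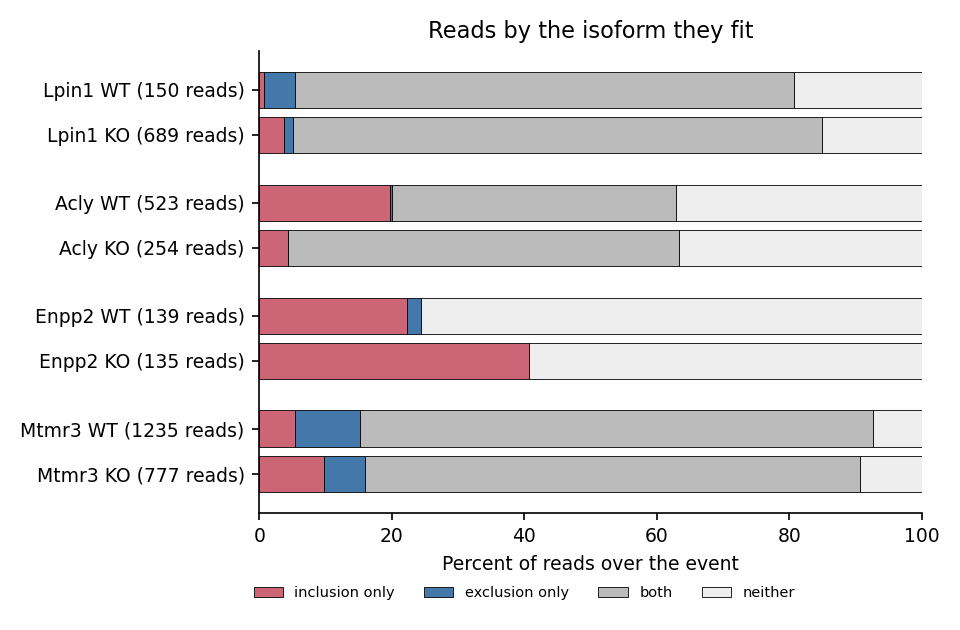
Share of the reads over each event, in percent, that fit inclusion alone, exclusion alone, both isoforms or neither, for each gene and library with its total. In Acly the inclusion-only part shrinks from 103 of 523 reads in WT to 11 of 254 in KO with no exclusion-only reads in KO, and Enpp2 has no reads that fit both.

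**Figure D4:**
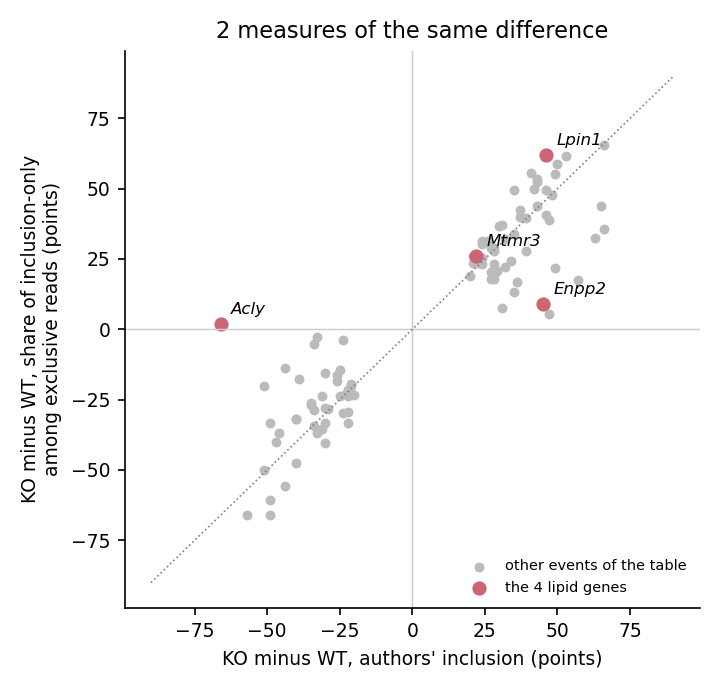
Difference between KO and WT in the authors' inclusion (horizontal, points) and in the share of inclusion-only among exclusive reads (vertical, points) for the 100 events, with the 4 lipid genes in red and equality as a dotted line. Acly at -66 and 1.90 points is the only event on opposite sides of 0, and Enpp2 at 45 and 8.82 points lies well under the line.

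The total number of reads over an event, which inclusion does not measure, also differed between the libraries. Values are KO to WT ratios divided by the median ratio of the 96 genes, 0.936, with exact 95% intervals that cover counting error only. In bulk RNA, fewer cells that express a gene and less RNA per cell cannot be told apart. Lpin1 had the highest ratio of all 96 genes, 4.91 (4.11 to 5.90), followed by 2.02 in the next gene, while the middle 50% of genes lay between 0.897 and 1.18. The ratio was 1.04 (0.813 to 1.32) in Enpp2, 0.672 (0.614 to 0.736) in Mtmr3 and 0.519 (0.445 to 0.604) in Acly.

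Reads assigned to each isoform in the authors' deposited table were scaled in the same way. They include reads that fit both isoforms, as the authors divided them. The intervals leave out the uncertainty of that division. In Lpin1 23 reads in WT and 290 in KO were assigned to inclusion, a ratio of 13.5 (8.81 to 21.6). To exclusion 98 and 295 were assigned, a ratio of 3.22 (2.55 to 4.09). Reads that fit Lpin1 inclusion alone were 1 in WT and 26 in KO, a ratio of 27.8 with a wide interval (4.56 to 1139). Reads that fit Lpin1 exclusion alone were 7 in WT and 9 in KO, a ratio of 1.37 (0.455 to 4.34). This interval includes both 1 and 3.22, so these few reads cannot show whether exclusion rose. In Mtmr3 289 and 326 reads were assigned to inclusion, a ratio of 1.21 (1.03 to 1.42). Reads that fit Mtmr3 inclusion alone were 66 and 76, a ratio of 1.23 (0.873 to 1.74), so their interval includes 1. To Mtmr3 exclusion 855 and 379 were assigned, a ratio of 0.474 (0.419 to 0.535). Reads that fit it alone were 121 and 48, a ratio of 0.424 (0.297 to 0.597), so the exclusion isoform had fewer reads in KO. In Acly 280 and 40 reads were assigned to inclusion, a ratio of 0.153 (0.107 to 0.213). To exclusion 49 and 121 were assigned, a ratio of 2.64 (1.88 to 3.76), of which 2 and 0 fitted it alone. No such ratio is given for Enpp2, because the KO cell of assigned reads had been turned into a time of day by a spreadsheet.

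Of lists totalling 159 genes of lipid metabolism and adipocyte differentiation, these 4 were the only ones with an event in the table. They were 1 of 23 genes of phosphatidate phosphatase and glycerolipid synthesis (Lpin1, higher and passed), 1 of 25 of fatty acid and sterol synthesis (Acly, not passed), 1 of 16 of lysophospholipid signalling (Enpp2, not passed) and 1 of 37 of phosphoinositide metabolism (Mtmr3, higher and passed). None of 29 genes of lipolysis, lipid droplets and fatty acid oxidation and none of 29 genes of adipocyte differentiation had a listed event. The lists were drawn up with earlier results of these data known, so the count is not a test. They do not cover every lipid gene, and the table may hold others. Genes outside the table were not tested here, so this count does not show that their splicing was alike.

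The cassette events nearest to each gene in WT and KO inclusion were found by Euclidean distance over the 2 libraries. Nearest to Lpin1 were Eif4a2, a translation initiation factor gene whose isoform text describes an alternative 5′ splice site, at 16% and 65%, and Crem, a cAMP-responsive transcription factor gene, at 16% and 66%. Nearest to Mtmr3 were Atxn2, the ataxin 2 gene, at 21% and 45%, and Ppp1r16a, a phosphatase regulatory subunit gene, at 20% and 44%. Eif4a2, Crem, Atxn2 and Ppp1r16a all passed, as did 86% of all events. Near Enpp2 was Entpd5, a nucleotide hydrolase gene, at 39% and 85%, which passed on 18 exclusive reads in WT and 25 in KO (adjusted p = 0.0045, Fisher's exact test). Nearest to Acly were Nsd2, a histone methyltransferase gene, 8.06 points away at 76% and 19%, and Rab11fip1, a gene of vesicle recycling, 14 points away at 83% and 32%. Nsd2 passed on 15 exclusive reads in WT and 11 in KO (adjusted p = 0.00219, Fisher's exact test). Rab11fip1, with 18 and 25, did not pass (adjusted p = 0.0697, Fisher's exact test).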

How the data were processed

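Poly(A)-selected RNA of 1 WT and 1 KO library was sequenced, per the labels' protocols. The submitters' processing notes name TopHat and mm9. The program that estimated inclusion, the level of its bounds and its event rule are not stated there. The authors deposited inclusion as a fraction from 0 to 1, printed here as a percentage, with a Bayes factor, which is a ratio. Their difference, a signed score in the deposited table, was turned to KO minus WT. The deposited cells also hold reads by isoform class. Sample 1 was taken as WT and sample 2 as KO from the labels' descriptions.

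Over the 100 events 56927 reads were counted in WT and 52735 in KO, with a median of 42 and 38 exclusive reads. Fisher's exact tests and exact intervals used scipy 1.17.1 under Python 3.11.15, and Newcombe intervals used statsmodels. Benjamini-Hochberg adjustment was over 100 events. The Fisher tests with this adjustment were run on simulated independent reads in which only a part of the events differed. The listed events were all selected for a difference, so the simulation does not show how the tests perform on them. The intervals were not tested on simulated data. Intervals, and limits from 3 counts where a share is 0, cover counting error only, since amplified reads are not independent molecules. Alternatives halved the inclusion reads (rounded up, or down as a setting added after seeing the data), used Holm adjustment, a difference of 30 points or a minimum of 20 exclusive reads, set inclusion-only against all other fitting reads, and changed the scaling of coverage.

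The genes, lists and tests were chosen with earlier results of these data known. Named genes are the 4 genes, listed genes with an event, and the 2 nearest cassette events of each of the 4, of which 1 is not reported here. Coordinates in mm9 and GRCm38 were not converted into each other.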

Additional observations from a re-analysis of the deposited data

How the results depend on the processing

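The count of 2 passing events, beside 86% of all events, became 1 with inclusion reads divided by 2 and rounded up, 1 under Holm adjustment, 1 with a minimum difference of 30 points and 1 with 20 or more exclusive reads per library. It stayed 2 with halved reads rounded down. With inclusion-only reads set against all other fitting reads it was also 2, but these were Acly and Mtmr3, beside 80% of all events. Shares of all events under the other settings are not given, so these counts cannot be set against the table. Lpin1 did not pass with halved reads rounded up, where its 1 WT read stayed 1 (Fisher's exact test, adjusted p = 0.0548), but passed rounded down (adjusted p = 0.0181). It did not pass under Holm adjustment (Fisher's exact test, adjusted p = 0.12) or against all other fitting reads (adjusted p = 0.0796), and it had too few reads for the minimum of 20, as had Acly. Mtmr3 (Fisher's exact test, adjusted p = 5.96e-05) missed the 30-point minimum by its size alone. Acly turned from a higher share of 1.90 points, or 3.70 with halved reads, to a fall against all other fitting reads (Fisher's exact test, adjusted p = 1.55e-09). Enpp2 did not pass under any setting (Fisher's exact tests, adjusted p from 0.056 to 0.701), and its difference of 45 points in the authors' inclusion was 8.82 points in the share of exclusive reads. Without scaling, the coverage ratio of Enpp2 was 0.971 in place of 1.04. From reads that fit both isoforms alone, divided by their own median ratio of 1, it was 0.67 in Acly and 0.607 in Mtmr3, and divided by the median of all reads, 0.716 and 0.649. Where no value is given for a cause, the cause was not tested. Exclusive reads were as few as 8 in WT for Lpin1 and 11 in KO for Acly, which limits their read shares. No paired analysis was possible because each genotype has 1 library.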
